A study of Homo sapiens with 2 samples.

Results

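The genes described here encode the kinase fusion partners BCR and ABL1, the ABL1 paralog ABL2, the adaptors CRK, CRKL, GRB2 and GAB2, the RAS exchange factor SOS1 and the lipid phosphatase INPP5D. They were chosen by name, as genes of the BCR-ABL1 signaling complex, because the cells studied derive from the blast crisis of chronic myeloid leukemia. All 9 genes were found among the 17280 gene symbols that the arrays annotate, 4 on the array called chIP1 (ABL1, ABL2, SOS1 and INPP5D) and 5 on chIP2 (BCR, CRK, CRKL, GRB2 and GAB2). Together they had 312 probes, and all 312 passed the filter on dim and non-uniform spots.

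GATA1 occupancy was measured in untreated Meg-01 cells, a human megakaryoblastic leukemia line, by chromatin immunoprecipitation and hybridization to promoter arrays (ChIP-on-chip). Chromatin sheared to about 500 to 1000 bp was precipitated with the GATA1 antibody C-20, raised against the protein's C-terminal end (the IP), or with normal goat IgG (the background). The IP DNA carried Cy5 and the IgG DNA carried Cy3 on the same array. The 2 arrays hold different probes, so every probe value rests on 1 hybridization, without replicates or swapped dyes, and precision is limited by the number of arrays. Differences were therefore described and not tested.

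The BCR-ABL1 fusion protein, made by the Philadelphia chromosome that Meg-01 cells carry, is a tyrosine kinase that is always active. Its phosphorylated BCR portion recruits GRB2, which brings SOS1 to RAS and GAB2 to phosphatidylinositol 3-kinase, while CRK and CRKL bind proline-rich stretches of the ABL1 portion. INPP5D (SHIP1) removes a phosphate from the lipid product of phosphatidylinositol 3-kinase and restrains the same signal. GATA1 is the zinc finger factor that binds GATA letters in DNA and drives erythroid and megakaryocytic genes. The arrays cannot tell the normal copies of BCR and ABL1 from the rearranged ones.

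For members whose highest signal lay within 2000 bp of a start, the 250 bases before a start are printed from RefSeq (GRCh38.p14), to show whether GATA letters stand at promoters that the array tiled. For BCR, ABL2, CRK and GAB2 this is the start nearest to the highest window, which was centered at +1944, +1504, -192 and -1270 bp. At these distances the 250 bases lie outside the highest windows of BCR, ABL2 and GAB2. For ABL1 it is the proximal start, whose highest window was 0.25, because the distal start with the signal was not in the table used here. The letters searched were AGATAA, the variant AGATAG, the variant TGATAA and the variant TGATAG on both strands, and matches are in capitals. In the table of 35116 promoters, 22.3% held at least 1 of them. The BCR sequence is chr22:23180259-23180508 (plus strand), the ABL1 sequence is chr9:130835004-130835253 (plus strand, the proximal start), and the ABL2 sequence is chr1:179143077-179143326 (minus strand). The CRK sequence is chr17:1456233-1456482 (minus strand), and the GAB2 sequence is chr11:78341920-78342169 (minus strand, the inner start).
BCR: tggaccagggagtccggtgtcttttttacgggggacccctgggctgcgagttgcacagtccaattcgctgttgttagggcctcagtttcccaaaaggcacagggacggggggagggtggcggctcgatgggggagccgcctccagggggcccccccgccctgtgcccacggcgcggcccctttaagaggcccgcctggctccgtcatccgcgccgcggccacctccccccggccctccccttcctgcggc
ABL1: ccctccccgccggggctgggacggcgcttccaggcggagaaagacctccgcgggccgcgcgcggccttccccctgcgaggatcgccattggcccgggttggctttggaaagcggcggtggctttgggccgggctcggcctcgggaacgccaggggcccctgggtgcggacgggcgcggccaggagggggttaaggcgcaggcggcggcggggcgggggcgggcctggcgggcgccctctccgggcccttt
ABL2: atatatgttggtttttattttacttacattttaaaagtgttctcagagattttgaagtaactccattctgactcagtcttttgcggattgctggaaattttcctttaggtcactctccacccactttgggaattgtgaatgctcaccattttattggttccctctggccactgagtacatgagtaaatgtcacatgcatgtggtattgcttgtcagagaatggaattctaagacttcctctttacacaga
CRK: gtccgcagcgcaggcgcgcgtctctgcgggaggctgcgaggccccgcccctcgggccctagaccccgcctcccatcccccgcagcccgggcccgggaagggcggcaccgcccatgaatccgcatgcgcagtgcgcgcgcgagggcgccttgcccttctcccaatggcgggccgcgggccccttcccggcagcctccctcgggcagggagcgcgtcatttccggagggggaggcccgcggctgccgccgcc
GAB2: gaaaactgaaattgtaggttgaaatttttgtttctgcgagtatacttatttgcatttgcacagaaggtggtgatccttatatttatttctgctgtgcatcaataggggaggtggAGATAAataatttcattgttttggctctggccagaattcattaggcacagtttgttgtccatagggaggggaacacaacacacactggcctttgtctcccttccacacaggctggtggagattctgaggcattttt

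Of the 11 promoters that the table holds for the 9 genes, 1 had a match: the GAB2 inner promoter held AGATAA beginning 136 bases before the start. The ABL1, CRK and BCR sequences held none of these letters and were 78.4%, 78.8% and 70.8% G and C. The GAB2 and ABL2 sequences were 41.2% and 37.6% G and C, against a median of 58% over all promoters in the table. Sequences without a match say only that these letters are absent from those 250 bases. SOS1 was not printed because the table holds 2 starts 3817 bp apart and the start meant by the array could not be assigned. The starts were matched by spacing within each build: the ABL1 starts lay 121563 bp apart on the array and 122211 bp apart in RefSeq, the ABL2 starts 86551 and 86601 bp, and the GAB2 starts 75840 and 75901 bp. For BCR and CRK no such spacing was compared, so their starts were not matched across builds. The ABL1 spacings differ by 648 bp, more than the 250 bases printed. The printed ABL1 sequence may therefore not lie directly before the array's proximal start.

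Values are log2 ratios of the IP to the IgG intensity, centered so that each array's median is 0, and 1 is a 2-fold excess of the IP. They were averaged over windows of 3 adjacent probes whose neighbors lay within 1000 bp of the center, and a window of at least 1 is called IP-side and one of at most -1 IgG-side. Positions are distances from the start as the array annotates it, negative upstream and positive inside the gene. Array coordinates are given as deposited, and their genome build is not given in the sources used here. As a measure of spotting and scanning error alone, control probes repeated on the arrays at intensity percentiles 50 to 99 (13 on each array) had SDs of 0.0424 to 0.103 on chIP1 and 0.0331 to 0.113 on chIP2. Control probes below the percentile 25 (2 on each array) had SDs of 0.353 to 0.482 and 0.294 to 0.699. Amplification and precipitation error was not measured.

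IP-side calls at the members were about as frequent as over the arrays as a whole, and IgG-side calls were less frequent. An IP-side window was present at 5 of the 9 members (ABL1, ABL2, GAB2, SOS1 and INPP5D), and at 57.1% of the 17054 genes with a window. An IgG-side window was present at 3 members (BCR, ABL1 and GAB2), or 33.3%, and at 52.9% of all genes. The median of the members' highest windows was 1.16 against 1.09 over all genes, and that of their lowest windows was -0.75 against -1.05. The highest windows of the 9 genes ranged from the percentile 13.3 of all genes (CRK) to 82.0 (GAB2). Each is a maximum over a gene's windows, which numbered from 12 at GRB2 to 64 at GAB2, with a median of 23 over all genes. More windows give more chances of an extreme value, and the ranks were not adjusted for this. With background correction by normexp these ranks moved: GAB2 fell to the percentile 16.1, the lowest of the 9, while INPP5D stood at 90.7, SOS1 at 84.1, ABL1 at 71.0 and BCR at 60.6. The members' IP-side count was therefore near that of the background and their IgG-side count was below it. With 9 genes neither is a result about these genes as a set.

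**Figure D1:**
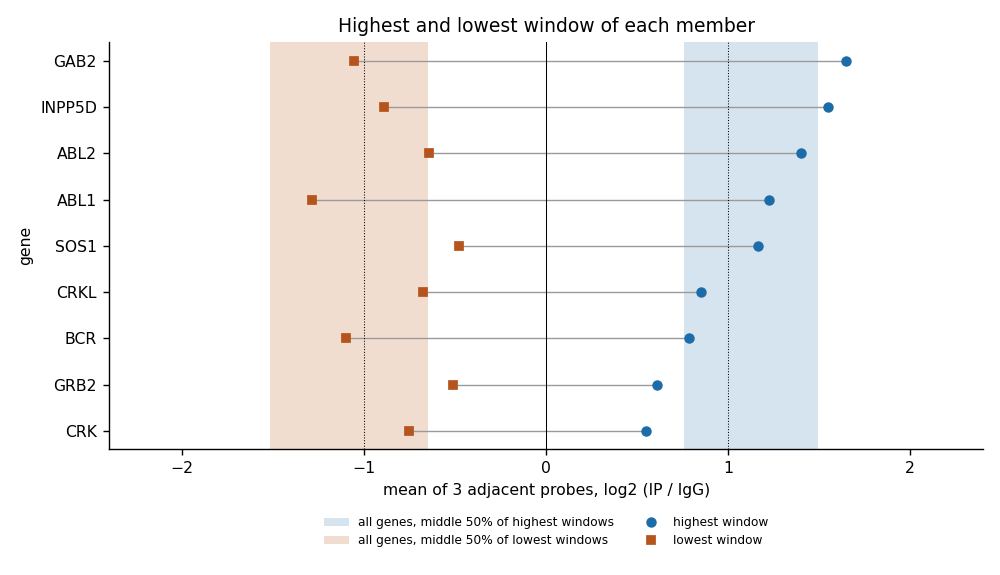
Highest (circles) and lowest (squares) mean of 3 adjacent probes for each of the 9 genes, as log2 of IP over IgG, with shading for the middle 50% of all genes and dotted lines at 2-fold. GAB2 had the highest window at 1.65 and CRK the lowest of the highest windows at 0.55, and GAB2 and INPP5D alone lay above the shaded range of highest windows.

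Near the starts, windows past 2-fold were found at ABL1 alone among the members. With the center of the window within 500 bp of a start, 1 of 9 members (ABL1) had an IP-side window, against 24.6% of 16445 genes, and ABL1 was also the 1 member with an IgG-side window there, against 9.33%. The median of the members' highest windows within 500 bp was 0.50 against 0.61 over all genes. Over all genes the median window was 0.26 between 0 and 500 bp upstream of a start and -0.19 between 4500 and 5000 bp upstream, so values at starts sat on a raised baseline.

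ABL1 encodes the kinase portion of the fusion and had 63 probes at 2 starts. At the distal start, 11 adjacent probes in a row were above 0, from -1371 to +165 bp (chr9:130617428-130619016 in array coordinates). Going toward the gene their values were 1.18, 0.82, 0.86, 1.13, 1.68, 0.35, 0.78, 1.09, 1.04, 1.06 and 1.21, a mean of 1.02 ± 0.33 (SD over the 11 probes). Their intensity percentiles ran from 35.3 to 93.4, so the stretch did not consist of dim probes. The next 9 probes, from +290 to +1764 bp, were all below 0, with a mean of -0.86 ± 0.67 (SD) and a lowest value of -2.24 at +413 bp. The profile thus turned from the IP to the IgG side between 165 and 290 bp inside the gene, a step shorter than the sheared fragments.

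A stretch of at least 11 adjacent probes above 0 was present at 13.0% of the 17279 genes with a kept probe. The median longest stretch above 0 over all genes was 6 probes. No such share is given for stretches below 0, so those of the members are descriptions only. Among the members the longest stretches were 11 probes at ABL1, 8 at SOS1, 7 at CRK, 6 at BCR and INPP5D, 5 at CRKL, 4 at GAB2, 3 at ABL2 and 2 at GRB2. The distal ABL1 stretch held 4 IP-side windows, at -1027, -825, -210 and -22 bp, with means of 1.22, 1.05, 1.06 and 1.10. Farther inside the gene, the distal start also had 3 IgG-side windows, the lowest -1.08 at +1432 bp. Over both starts ABL1 had 4 IP-side and 6 IgG-side windows. ABL1 and SOS1 were the members with at least 4 IP-side windows, a number reached by 20.5% of all genes. ABL1 had 57 windows and SOS1 had 23, beside a median of 23 over all genes. The highest window, at -1027 bp, had IP intensities of 1801, 3666 and 1162 over IgG intensities of 991, 1679 and 364. The windows at -1027 and -825 bp share probes, as do those at -210 and -22 bp. Between these places the windows at -639 and -450 bp were 0.93 and 0.74. IP-side windows at the distal start were thus not all separate values, and not rare for the array.

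The proximal ABL1 start gave a different profile, 121563 bp away on the same array. Over the distance range of the distal stretch, its 6 probes had a mean of -0.03 ± 0.30 (SD) and ran from -0.50 to 0.33. The highest of them lay below the lowest of the 11 distal probes, 0.35. The range was set by the distal probes, so this contrast between the starts is a description. No window of the proximal start reached 1 (highest 0.25), and 3 windows from +1970 to +2231 bp were IgG-side, the lowest -1.29 at +2079 bp with probe values of -1.28, -1.48 and -1.11. Farther upstream, 8 adjacent probes from -2625 to -1509 bp were below 0 with a mean of -0.59 ± 0.35 (SD).

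**Figure D2:**
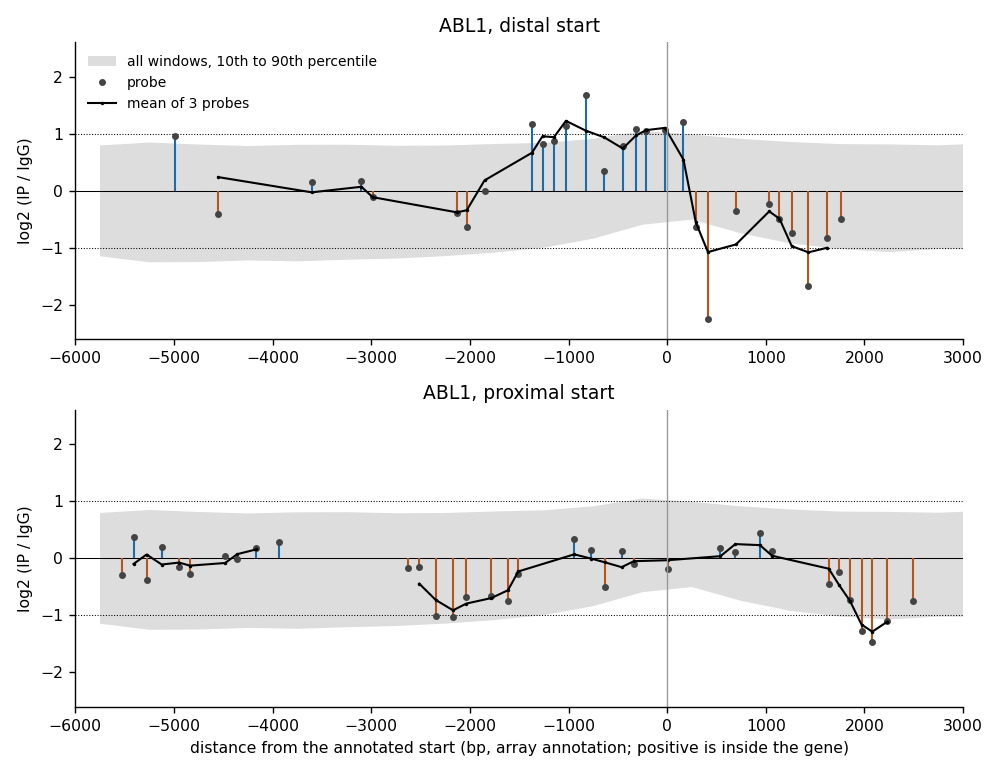
Log2 of IP over IgG (vertical axis) for each ABL1 probe against its distance in bp from the distal (top) and proximal (bottom) start, with the mean of 3 adjacent probes as a line, the 10th to 90th percentile of all windows shaded and dotted lines at 2-fold. All 11 probes from -1371 to +165 bp at the distal start lie above 0 and the 9 that follow lie below it, while the proximal start has 8 adjacent probes below 0 from -2625 to -1509 bp, no window past 2-fold near the start itself and a lowest window of -1.29 at +2079 bp.

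At the distal start 18 ABL1 probes also carried the accession of EXOSC2, an exosome subunit gene, at 15099 to 20069 bp past its start. No other RefSeq gene shared probes with a member in the annotation. The values at the distal ABL1 start were counted for ABL1, the nearer start.

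BCR provides the promoter of the fusion transcript as well as its dimerizing portion, and its 32 probes had a median intensity percentile of 90.6, with dim ones at +785 and +1075 bp (percentiles 4.25 and 1.28). The 5 probes within 500 bp of the start had a mean of 0.18 ± 0.26 (SD), and the windows there ran from 0.02 to 0.48. The highest BCR window was 0.79 at +1944 bp (chr22:21848794-21849280), with probe values of 0.14, 1.32 and 0.89, and it closed a run of 6 probes above 0 from +1278 to +2147 bp. The lowest was -1.10 at -4485 bp, with probe values of -0.54, -1.58 and -1.18. BCR thus had no window of 2-fold IP excess, and its highest window stood at the percentile 27.0 of all genes. With normexp that highest window was 0.93, at the percentile 60.6.

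ABL2, the other ABL-family kinase, was tiled at its inner start, and its probes were dim (median percentile 17.6). Its highest window was 1.40 at +1504 bp (chr1:175842198-175842544), with probe values of 2.34, 1.21 and 0.65. A second IP-side window of 1.06 lay at -1760 bp, where the probe values were 0.12, 1.89 and 1.18 and the intensity percentiles were 1.84 to 3.82. Between them the start was on the IgG side of 0: the 6 probes within 500 bp had a mean of -0.49 ± 0.44 (SD), and 6 adjacent probes from +185 to +1176 bp were all below 0. Both raised windows were at the edges of the tiled region. The probes of the higher one had intensity percentiles of 17.8 to 47.7, and with normexp the highest ABL2 window was 0.74. The part of low intensity in these windows was not tested further.

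The adaptors CRK, CRKL and GRB2 had no window past 2-fold on either side. CRK, the cellular form of a viral oncogene adaptor, had its highest window just upstream of the start, 0.55 at -192 bp, with probe values of 0.32, 0.51 and 0.81. All 4 CRK probes in the distance range of the ABL1 stretch were above 0, with a mean of 0.56 ± 0.20 (SD). CRKL, the major adaptor substrate of BCR-ABL1, alternated along its locus. Its 5 probes within 500 bp of the start had a mean of 0.42 ± 0.17 (SD). The 5 from +522 to +1062 bp had a mean of -0.62 ± 0.12 (SD). The highest window reached 0.85 at +2189 bp with probe values of 0.68, 0.92 and 0.96. The probes of that window had intensity percentiles of 11.1 to 45.3, and with normexp the highest CRKL window was 0.49. Each of these CRKL means lay farther from 0 than the SD among its probes, and no CRKL window reached 2-fold on either side of 0.

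GRB2, which links the BCR portion to SOS1, was the member whose start lay farthest to the IgG side among the adaptors. Its 5 probes within 500 bp of the start had values of -0.88, -0.56, 0.42, -1.40 and 0.16 with a mean of -0.45 ± 0.74 (SD). The windows there ran from -0.51 to -0.28, and the highest of them stood at the percentile 5.16 of all genes at their starts. Beyond the start, 2 probes at -4837 and -4737 bp read 1.24 and 1.01, and with the remaining probe of the window at -0.43 the mean was 0.61. The scatter among the GRB2 start probes exceeded their mean.

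GAB2, the docking adaptor for phosphatidylinositol 3-kinase, had 68 probes at 2 starts and the highest window of all members. It was 1.65 at -1270 bp of the inner start (chr11:77731675-77731975), with probe values of 0.37, 2.13 and 2.45, and its neighbor at -1128 bp was 1.54. The IP intensities of the 3 probes were 281, 204 and 1022 over IgG intensities of 216, 46.5 and 187, at intensity percentiles 3.83 to 26.8. Next to it, 6 adjacent probes from -3671 to -1667 bp were below 0, and 2 windows there were IgG-side (-1.06 at -2404 bp and -1.05 at -2731 bp), also at dim probes. With normexp the highest GAB2 window fell to 0.44. The AGATAA printed above, 136 bases before the inner start, lay between a probe at -265 bp that read -0.72 and a probe at +101 bp that read 0.55, and the windows within 500 bp of that start ran from -0.21 to 0.26.

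The outer GAB2 start, whose promoter was 84% G and C with no match, had no window past 2-fold. Its highest window was 0.57 and its 4 probes within 500 bp had a mean of 0.48 ± 0.51 (SD). A single dim probe at +372 bp, at the intensity percentile 9.62, read 1.25 beside -0.29 and 0.21. The probes at -18, -345 and -462 bp read 0.21, 0.24 and 0.22.

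SOS1, the exchange factor that loads RAS with GTP, had 2 separate raised places and none on the IgG side. Upstream, the probes at -1112, -1006, -840 and -613 bp read 1.08, 1.27, 1.11 and 1.12, and the highest window was 1.16 at -840 bp (chr2:39259805-39260246). The 3 probes of that window differed by an SD of only 0.09, the smallest among the members' highest windows. The probes at -1112, -1006 and -840 bp were bright, with IP intensities of 5182, 5206 and 5654 over IgG intensities of 2461, 2168 and 2622, while the probe at -613 bp was dim, at the percentile 16.4 with 459 over 212. Inside the gene, windows of 1.03 at +804 bp and 1.07 at +990 bp rested mainly on 1 probe that read 2.03. The start itself was near 0, with a mean of 0.06 ± 0.28 (SD) over 5 probes.

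INPP5D, the inositol phosphatase SHIP1 of blood cells, had its highest window far upstream. The 4 probes at -5356, -5168, -5042 and -4891 bp read 1.13, 1.26, 0.72 and 2.66 and gave windows of 1.04 and 1.55 (chr2:233745345-233745678 for the higher). Another IP-side window, of 1.05 at -1120 bp, rested on 1 probe of 2.34 between neighbors of 0.73 and 0.06. The 7 probes within 500 bp of the start had a mean of 0.25 ± 0.22 (SD). A second block of 17 probes, 99164 to 103506 bp inside the gene, had no window past 2-fold and a lowest window of -0.89.

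**Figure D3:**
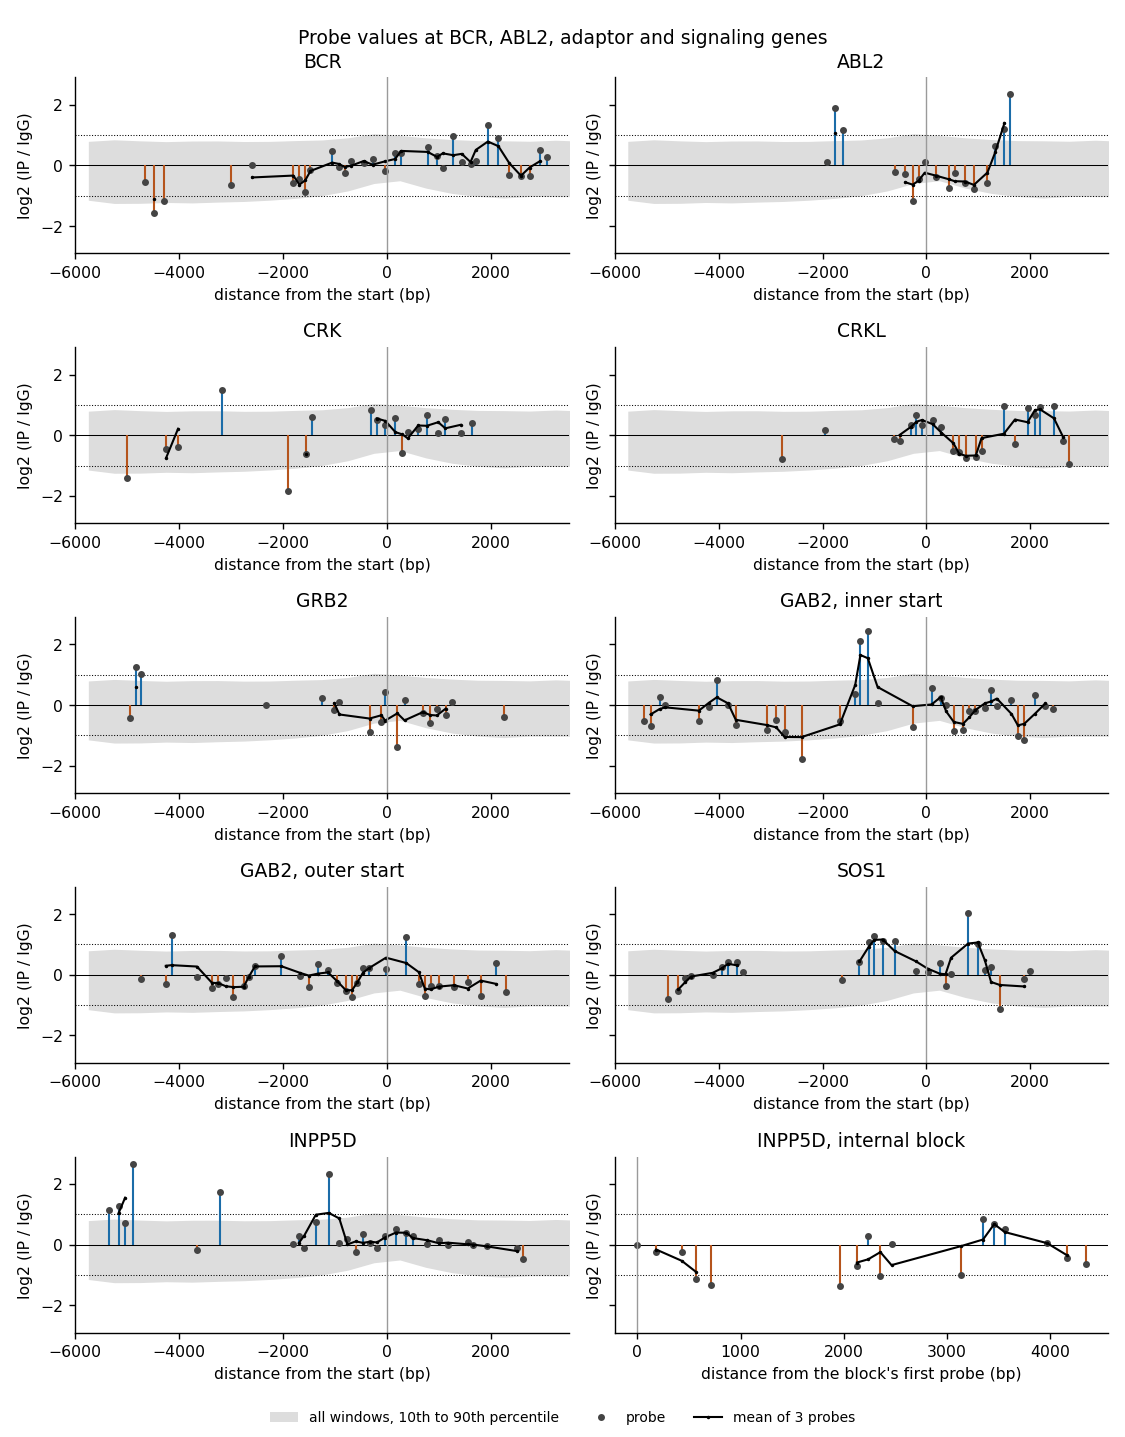
Log2 of IP over IgG for each probe of BCR, ABL2, CRK, CRKL, GRB2, GAB2, SOS1 and INPP5D against distance in bp from the start (from the first probe for the internal INPP5D block), with the mean of 3 adjacent probes as a line broken at gaps over 1000 bp, the 10th to 90th percentile of all windows shaded and dotted lines at 2-fold. The SOS1 probes near -1000 bp are even in height, while the raised windows of GAB2, ABL2 and INPP5D hold probes as high as 2.45, 2.34 and 2.66 beside lower ones.

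In order of their highest windows the members were GAB2 (1.65), INPP5D (1.55), ABL2 (1.40), ABL1 (1.22), SOS1 (1.16), CRKL (0.85), BCR (0.79), GRB2 (0.61) and CRK (0.55). These are maxima over unequal numbers of windows. The gap between neighbors in this order exceeded the SD among the probes of both windows for 1 of the 8 pairs, SOS1 over CRKL (0.31 against 0.15). That SD is a spread along the locus and not an error of the window, and SOS1 and CRKL were on different arrays. The order was therefore not resolved for any of these 8 pairs, and with normexp GAB2, at 0.44, was last. Genes farther apart in the order were not compared. The evenness of the windows differed more than their height: the SD over the 3 probes was 1.12 at GAB2, 1.00 at INPP5D and 0.86 at ABL2, against 0.41 at ABL1 and 0.09 at SOS1.

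Windows of 5 probes separated the raised places further. ABL1 was then the 1 member with an IP-side window, 1.13, against 34.1% of all genes, and SOS1 followed at 0.997. The other 3 fell below, GAB2 to 0.90, INPP5D to 0.66 and ABL2 to 0.57. With normexp, ABL1 (1.05), SOS1 and INPP5D had an IP-side window, against 33.1% of all genes.

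**Figure D4:**
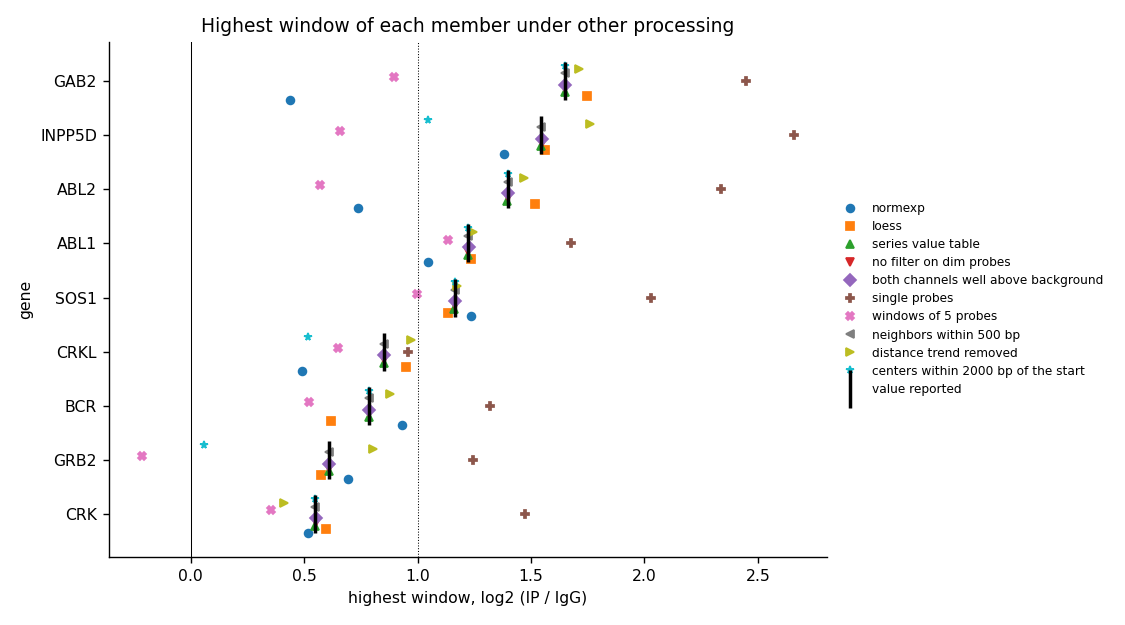
Highest window of each member as log2 of IP over IgG (horizontal axis) as reported (black bars) and under 10 other ways of processing (symbols), with a dotted line at 2-fold. ABL1 stays above 1 in each of them, with a lowest value of 1.05 with normexp. GAB2 and ABL2 drop to 0.44 and 0.74 with normexp and to 0.90 and 0.57 with windows of 5 probes. INPP5D and SOS1 drop to 0.66 and 0.997 with windows of 5 probes, and stand at 1.38 and 1.24 with normexp.

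Of 30 other genes of ABL1 and BCR-ABL1 signaling, 29 had a window (the symbol PIK3CA was not found in the array annotation). An IP-side window was present at 19 of the 29 and an IgG-side window at 12, beside 57.1% and 52.9% of all genes, and the median highest and lowest windows were 1.18 and -0.95. As shares of the 29 genes these counts were 65.5% and 41.4%, which is no result about the list as a set. STAT5A and STAT5B, transcription factor genes that share probes on the array, shared their highest window of 1.45 (probe values of 0.69, 2.66 and 0.99) and were counted as 2 genes.

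The highest windows among these genes were at AKT1, CBL, RAPGEF1, NCK1 and the shared STAT5A and STAT5B probes. AKT1, a survival kinase, had both a window of 1.64 at -2504 bp with even probes (1.65, 1.54 and 1.73) and a window of -1.51 at -3477 bp. CBL, a ubiquitin ligase that turns over active kinases, reached 1.63 at -1470 bp at dim probes (percentiles 3.55 to 33.5). RAPGEF1, the exchange factor bound by CRK, reached 1.53 at -2133 bp with 1 probe at 2.72. NCK1, another adaptor, reached 1.47 at +132 bp with probe values of 1.57, 1.53 and 1.30 at bright probes (percentiles 82.4 to 96.9). The lowest windows were -1.87 at CBLB, a relative of CBL, -1.63 at PIK3R1, the regulatory subunit of phosphatidylinositol 3-kinase, and -1.51 at AKT1.

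**Figure D5:**
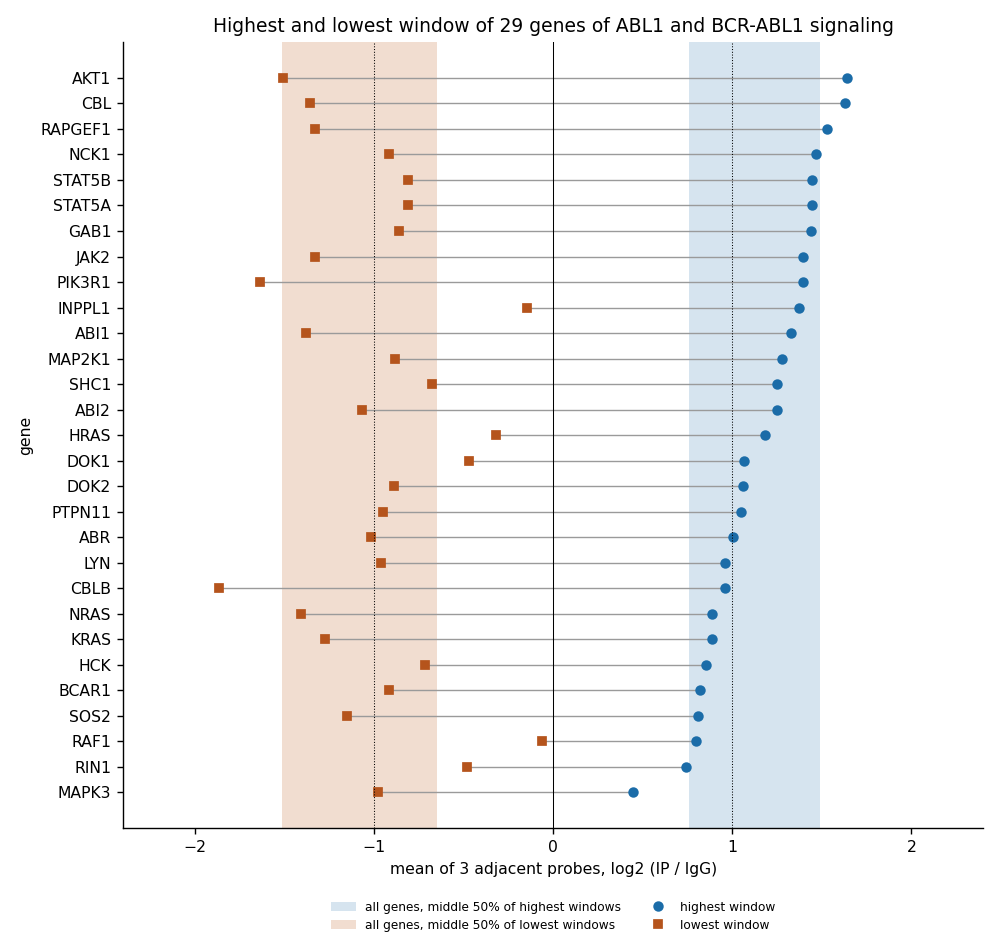
Highest (circles) and lowest (squares) mean of 3 adjacent probes for 29 genes of ABL1 and BCR-ABL1 signaling, as log2 of IP over IgG, with shading for the middle 50% of all genes and dotted lines at 2-fold. The highest windows run from 0.44 (MAPK3) to 1.64 (AKT1).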

How the data were processed

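GATA1 ChIP DNA and IgG DNA of untreated Meg-01 cells were hybridized together on 2 promoter arrays (1 sample each). Per the file headers, Agilent Feature Extraction 9.5.3.1 gave the deposited intensity values (spatial detrending, linear dye normalization, no local background subtraction). The deposited log10 ratio of Cy5 over Cy3 and its deposited p-value come from the error model of that software within 1 array. The log10 ratios of the series value table were identical to them. The genome build of the array coordinates is not given in the sources used here. The study's own peak calling was not used.

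Probe values were log2 of processed IP over IgG intensity, array median 0. Control spots, non-uniform spots and probes not well above background in the IP or the IgG channel were dropped, which kept 237004 of 237210 and 236864 of 237201 genomic probes. Windows of 3 probes with neighbors within 1000 bp gave 208780 and 206629 windows. A gene's value was the highest or lowest window with at least 1 of the gene's probes in it, and a window of at least 1 or at most -1 (2-fold) was called. The window step was tested on simulated data. Each array gives 1 value per probe, so precision rests on that number and no p-value, SD over samples or interval could be had. SDs are over probes of a locus, which share DNA fragments and are not replicates. The members, the list of 30 signaling genes and the rules were chosen with earlier results of these data known, and 1 further gene of that list is not reported here. Named genes were all members, the 5 pathway genes with the highest and the 3 with the lowest windows, and genes that share probes with a member. G and C content and GATA letters were read from RefSeq promoters (GRCh38.p14), the 250 bases before each start.

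The 13 alternatives were normexp (offset 50, limma), loess on intensity (span 0.3), the deposited series values, all probes regardless of brightness, probes bright in both channels, 1-probe and 5-probe windows, 1.5-fold and 3-fold thresholds, the scanner error model (center p under 0.001, a neighbor under 0.1), neighbors within 500 bp, the distance trend removed in steps of 500 bp to 6000 bp, and window centers within 2000 bp of the start. Normexp started from the mean signals and local background of all spots, and not from the processed intensities. Python 3.11.15, pandas 2.3.3, statsmodels 0.14.6, R 4.3.3 and limma 3.58.1 were used.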

Additional observations from a re-analysis of the deposited data

How the results depend on the processing

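The highest windows of the 9 members gave 116 values under the 13 alternatives. Of these, 97 kept their side of the threshold, 10 were no longer past it, 9 were newly past it and 0 changed direction while called. The reported values were 5 members with an IP-side window, 3 with an IgG-side window, and medians of 1.16 and -0.75 for the highest and lowest windows. With normexp the counts were 3 and 0 and the medians 0.74 and -0.55. With single probes both counts were 8 and the medians 1.68 and -1.40. With windows of 5 probes both counts were 1 and the medians 0.65 and -0.58. A threshold of 1.5-fold gave 8 and 7, the scanner error model 8 and 7, and a threshold of 3-fold 1 and 0. The IP-side and IgG-side shares of all genes moved as well, to 33.1% and 23.9% with normexp and 86.1% and 81.1% with single probes. They were 34.1% and 33.5% with windows of 5 probes and 85.0% and 78.4% at 1.5-fold. With the scanner error model they were 85.2% and 79.8%, and at 3-fold 20.6% and 22.3%. With neighbors within 500 bp the lowest-window median was -0.68, and with the distance trend removed it was -0.89 and 1 member had an IgG-side window. With centers within 2000 bp of the start the medians were 1.05 and -0.64, and 1 member had an IgG-side window. The IgG-side share of all genes was 49.5% with the trend removed and 32.6% with centers within 2000 bp. Other member counts were within 1.5 times the reported ones. Other member medians moved by no more than 0.0585, the median SD of repeated control spots. The cause of these shifts was not tested, except that single probes, 5-probe windows, other thresholds and the limit to 2000 bp change the counts by construction. The offset of 50 in normexp also draws the ratios of dim probes toward 0 by construction. How much of the falls at GAB2 and ABL2 came from this offset was not tested. No paired analysis was possible because the arrays share no probes, so no test over samples exists. Precision is limited by 1 hybridization per probe and by dim probes at ABL2, GAB2 and in part CRKL and SOS1. Adjacent probes that lie on shared fragments and gaps in tiling at CRK and GRB2 limit it further. Without swapped dyes, an IP excess cannot be told apart from a dye effect.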
